A study of Mus musculus with 4 samples.

Results

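Macrophage marker genes were examined in fetal brown adipose tissue (BAT), as a set of 10 named genes taken by symbol from the 22298 genes of the count table. The set holds Adgre1, Csf1r, Ptprc, C1qa, C1qb, C1qc, Mrc1, Cd163, Lyve1 and Cd68, and all 10 were found and tested. The BAT came from C57BL/6 fetuses (C57BL/6J in the methods of the study) at E18.5, the last day of gestation, whose dams were given sterilized tap water alone (control) or fructose dissolved in it at 20% w/v (fructose) from mating. RNA-seq gave 2 libraries per group, 4 in all, and the fetuses of every library are labelled male. Fetal sex was typed by PCR according to the methods of the study. The number of fetuses or litters behind a library is not given in the sources used here, so the spread between libraries may be partly technical. The comparison asks whether fructose water given to the dam changed the macrophage transcripts of the fetal tissue.

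Macrophages are phagocytes that settle in most tissues before birth, where they clear dying cells, take up scavenged ligands and sense injury. Their survival depends on CSF1 and IL-34, which act through the receptor encoded by Csf1r. In adipose tissue they lie between the adipocytes and along vessels, and resident cells of this kind often carry the endocytic receptors encoded by Mrc1, Cd163 and Lyve1. Macrophages are also a main source of C1q, the recognition molecule of the classical complement route, which is built from the chains encoded by C1qa, C1qb and C1qc.

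The libraries held 18542897 to 23645147 counts on genes. The labelled tissue carried its markers, since the 12 listed brown adipocyte genes summed to between 22380.2 and 26211.3 CPM (counts per 1000000 of the library size after TMM normalisation). Summed over Ddx3y, Eif2s3y, Uty and Kdm5d, all Y-linked, the counts were 422 and 390 in control but 0 in both fructose libraries, which goes against the male label of the fructose libraries, so diet and this difference cannot be told apart in any comparison given here. The 12 listed skeletal muscle genes were all higher in fructose at an adjusted p-value under 0.05, and mitochondrially encoded genes took 5.89% and 6.49% of the control counts against 10.8% and 11.2% of the fructose counts. In 12884 tested genes of known transcript length, fold changes rose with transcript length (Spearman's rho 0.50) and fell with GC content (rho -0.50), both as descriptions across genes, which are not independent replicates. Fold changes with these trends removed from each library are given for the 10 genes, and for other named genes where stated. Their part in the results, and that of the muscle and mitochondrial transcripts, was not tested.

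The macrophage marker genes did not move together between the groups. Of the 10 genes, Mrc1 was higher in fructose, C1qa and C1qb were lower, and the other 7 did not pass the test (edgeR's quasi-likelihood test on all 12888 genes kept by its filter, two-sided, Benjamini-Hochberg adjusted p-value under 0.05). Fold changes are given as log2 values of fructose over control with their standard error (SE), and adjusted p-values are those of edgeR unless DESeq2 is named. Over all tested genes, 15.5% were called higher and 10.7% lower by the same rule (2242 and 857 genes, in place of 2001 and 1379, when library size alone set the scale), so 1 and 2 calls among 10 genes are read against these shares and are no result about the set. DESeq2 called Mrc1 alone. Without control library 1 the counts were 3 higher and 0 lower, without control library 2 they were 0 and 3, without fructose library 1 they were 2 and 0, and without fructose library 2 they were 0 and 0 by edgeR, with 4 at an unadjusted p-value under 0.05. When the selection of the study was applied to the edgeR fit (p under 0.05 before adjustment, fold above 1.3), Mrc1 and Cd163 were called higher and C1qb lower, against backgrounds of 17.6% and 6.18%. On the DESeq2 fit, an alternative chosen after seeing the data, the same selection gave Mrc1 higher and C1qb lower, against 14.2% and 5.77%. None of the 10 genes was called by edgeR once trends were removed. The background was then 8.92% higher and 7.68% lower for the length trend, 8.47% and 8.77% for the GC content trend, and 3.91% and 4.17% for both, and the genes of the set at an unadjusted p-value under 0.05 numbered 1, 1 and 0. The median log2 fold change of the set was 0.04, beside 0.0025 for all tested genes. Summed over the 10 genes, the level was 197 and 155 CPM in control and 162 and 165 CPM in fructose. Both fructose sums lay between the sums of the control libraries. In bulk tissue, fewer cells of a type and less RNA per cell cannot be told apart.

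**Figure D1:**
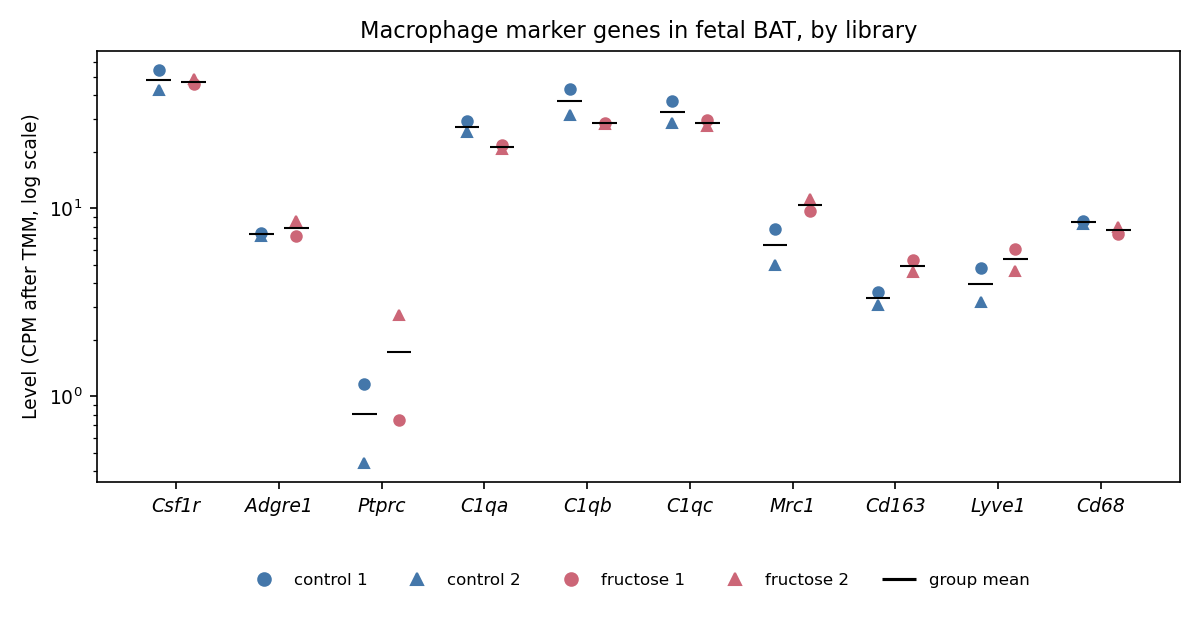
Level of each of the 10 macrophage marker genes (x axis) in each library, in CPM on a log scale (y axis), with circles for library 1 and triangles for library 2 of the control (blue) and fructose (red) groups and black lines for the group means. Mrc1 sat higher in both fructose libraries (9.69 and 11.2 CPM) than in both control libraries (7.81 and 4.99 CPM), C1qa and C1qb sat lower, and Csf1r overlapped.

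The libraries of a group differed in these genes as well. All 10 genes were higher in control library 1 than in control library 2, with a median log2 difference of 0.37, while 51.6% of all tested genes were higher in control library 1. In the fructose group, 5 of the 10 genes were higher in library 2 than in library 1. The direction between the control libraries was shared by 26 of the 29 tested genes of a list of other macrophage genes and by all 9 tested mast cell genes. Results are therefore also given with each control library left out, where the single library left in a group is assumed to vary like the others.

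Levels per kilobase of the longest annotated transcript (FPKM) placed the C1q genes first. In control, C1qb was at 34.5 FPKM, C1qc at 27.3, C1qa at 26.3, Csf1r at 10.3, Cd68 at 6.86 and Adgre1 at 2.25 FPKM, as group means. Lyve1 followed at 1.38, Mrc1 at 1.19, Cd163 at 0.747 and Ptprc at 0.140 FPKM. Across the control libraries C1qc overlapped both C1qb and C1qa, and Lyve1 overlapped Mrc1, so these neighbours are not resolved by their ranges. Within each control library C1qb stood above C1qc and Lyve1 above Mrc1, while C1qc and C1qa changed order. Csf1r, Cd68, Adgre1 and Ptprc were each separated from their neighbours in both control libraries. In fructose the order was the same except that Mrc1 (1.95 FPKM) stood above Lyve1 (1.86 FPKM), with overlapping libraries. The 3 C1q genes did not overlap there, at means of 26.1 FPKM for C1qb, 23.7 for C1qc and 20.4 for C1qa.

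Among the 10 genes, Csf1r, Adgre1 and Ptprc, which mark macrophages or leukocytes in general, did not pass the test. Csf1r encodes the receptor tyrosine kinase that macrophages need for survival, and it had the highest CPM of the set. It was at 54.3 and 42.5 CPM in control and at 45.9 and 48.7 CPM in fructose. The fructose libraries fell between the control libraries, and the log2 fold change was -0.03 (SE 0.11, adjusted p = 0.85). With both trends removed it was -0.04 (adjusted p = 0.87). Its sign turned when library sizes alone were used for scaling, with the GC content trend removed, and without control library 1 or fructose library 1. Csf1r overlaps Hmgxb3, on the other strand, by 873 bases, and reads there could belong to either gene, because the treatment of strand is not given in the sources used here.
Adgre1 (chromosome 17, 57358691 to 57483527, GRCm38) encodes F4/80, an adhesion receptor used to mark mouse macrophages. Its level was 7.44 and 7.16 CPM in control and 7.12 and 8.62 CPM in fructose. The groups overlapped, and the log2 fold change was 0.11 (SE 0.17, adjusted p = 0.68). With both trends removed it was 0.06 (adjusted p = 0.87).
Ptprc (chromosome 1, 138062861 to 138175708) encodes CD45, a phosphatase on the surface of all leukocytes. It was the least abundant of the set, with 22 and 8 counts in control and 17 and 66 counts in fructose, or 1.16 and 0.444 CPM against 0.752 and 2.70 CPM. The groups overlapped, and the higher mean in fructose came from fructose library 2. The log2 fold change of 1.10 (SE 0.59, adjusted p = 0.19) was -0.098 without that library. Ptprc was called only without control library 1 (1.96) and without fructose library 1 (1.73), each with a single library left in that group. With both trends removed it was 0.45 (adjusted p = 0.70).

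The 3 C1q genes lie side by side on the minus strand of chromosome 4 within 18675 bases, in the order C1qb (136880129 to 136886187), C1qc (136889804 to 136893065) and C1qa (136895917 to 136898803). They have short transcripts of 1040 to 1203 bases. C1qa and C1qb were lower in fructose, and C1qc did not pass the test. C1qa was at 29.1 and 25.5 CPM in control and 21.9 and 20.7 CPM in fructose. Both fructose libraries lay below both control libraries, with a log2 fold change of -0.36 (SE 0.11, adjusted p = 0.034), a 1.29-fold lower level. C1qb was at 43.4 and 31.6 CPM in control and 28.7 and 28.2 CPM in fructose. Again the groups did not overlap, but control library 1 stood well above the other 3 libraries, and the log2 fold change was -0.40 (SE 0.13, adjusted p = 0.043). C1qc was at 37.2 and 28.4 CPM in control and 29.6 and 27.4 CPM in fructose. These groups overlapped, and the log2 fold change was -0.20 (SE 0.13, adjusted p = 0.26).
Summed over the 3 chains, the level was 110 and 85.5 CPM in control and 80.2 and 76.2 CPM in fructose, so the group means of 97.6 ± 17.1 and 78.2 ± 2.76 CPM (SD, n = 2 libraries each) differed by little more than the control spread. The chains kept similar shares of their summed counts in every library. C1qa held 26.5% to 29.8%, C1qb 35.8% to 39.6% and C1qc 33.2% to 37.0%. The C1qc share was 33.9% and 33.2% in control and 37.0% and 35.9% in fructose, without overlap, and the shares of C1qa and C1qb overlapped. Levels of 65.1% of all tested genes did not overlap between the groups, and no such background was taken for these shares.
The calls of C1qa and C1qb did not hold in every setting. DESeq2 gave log2 fold changes of -0.37 for C1qa (adjusted p = 0.081) and -0.41 for C1qb (adjusted p = 0.060), and called neither. Without control library 1, C1qb was at -0.16 (adjusted p = 0.38), C1qa at -0.27 (adjusted p = 0.14) and C1qc at 0.00096 (adjusted p = 0.996). Without control library 2, C1qb was at -0.61 (adjusted p = 1.2e-05), C1qa at -0.45 (adjusted p = 0.0063) and C1qc at -0.38 (adjusted p = 0.013). With both the length and the GC content trend removed, the values were 0.04 for C1qa, -0.04 for C1qb and 0.15 for C1qc, and none was called (smallest adjusted p = 0.50).

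Of the endocytic receptor genes Mrc1, Cd163 and Lyve1, Mrc1 alone passed the test. Mrc1 (chromosome 2, 14229392 to 14332057) encodes the mannose receptor CD206, which takes up glycoproteins with exposed mannose and is made by resident macrophages and some endothelium. It was at 7.81 and 4.99 CPM in control and at 9.69 and 11.2 CPM in fructose. Both fructose libraries exceeded both control libraries, and the log2 fold change was 0.71 (SE 0.21, adjusted p = 0.026), a 1.63-fold higher level. DESeq2 also called Mrc1 (0.70, adjusted p = 0.046). Its value was 1.06 without control library 1 (adjusted p = 3.0e-05), and it was not called without control library 2 (0.42, adjusted p = 0.11) or without fructose library 2 (0.60, adjusted p = 0.10). With the length trend removed it was 0.49 (adjusted p = 0.11), 0.41 without the GC content trend (adjusted p = 0.16), and without either 0.31 (adjusted p = 0.36).
Cd163 (chromosome 6, 124304656 to 124330527) encodes the scavenger receptor for complexes of haemoglobin and haptoglobin. It was at 3.59 and 3.05 CPM in control and 5.31 and 4.61 CPM in fructose. The groups did not overlap, but the log2 fold change of 0.58 did not pass the test (SE 0.23, adjusted p = 0.081). With the selection of the study it was called on the edgeR fit and not on the DESeq2 fit (unadjusted p = 0.086), and no alternative brought its adjusted p-value under 0.05 (0.057 to 0.34), while its value stayed between 0.46 and 0.70. Its counts were low, at 68 and 55 in control and 120 and 113 in fructose.
Lyve1 (chromosome 7, 110850607 to 110863239) encodes a hyaluronan receptor shared by lymphatic endothelium and perivascular macrophages. It was at 4.80 and 3.16 CPM in control and 6.10 and 4.66 CPM in fructose. The groups overlapped, with a log2 fold change of 0.43 (SE 0.25, adjusted p = 0.23). With both trends removed it was 0.38 (adjusted p = 0.39). Lyve1 was called only without control library 1 (0.76).
Cd68 (chromosome 11, 69664213 to 69666153) encodes a glycoprotein of the lysosomal membrane of phagocytes and has a short transcript of 1230 bases. It was at 8.61 and 8.27 CPM in control and 7.30 and 8.005 CPM in fructose. Both fructose libraries lay below both control libraries by a small margin, the log2 fold change was -0.14 (SE 0.16, adjusted p = 0.56), and 0.14 once both trends were taken out.
Across the set, groups did not overlap for 5 of the 10 genes, namely Mrc1 and Cd163 on the higher side and C1qa, C1qb and Cd68 on the lower side. Over all tested genes, 65.1% had groups that did not overlap.

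**Figure D2:**
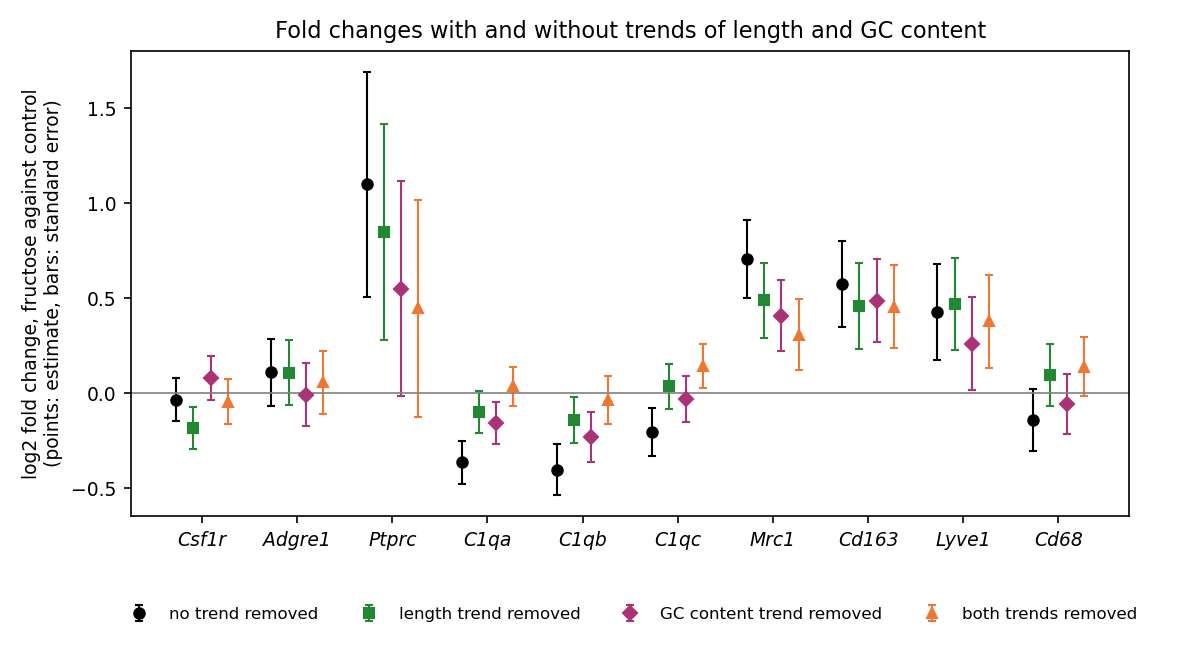
Log2 fold change of fructose against control (y axis) for each gene (x axis), with standard errors as bars, without trend removal (black circles), with the length trend removed (green squares), the GC content trend removed (purple diamonds) and both removed (orange triangles). C1qa moved from -0.36 to 0.04 and Mrc1 from 0.71 to 0.31 with both trends removed, while Cd163 moved from 0.58 to 0.46.

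The sequences just before the starts of Mrc1 and C1qb are shown because these genes were called in opposite directions. They are RefSeq promoter windows on GRCm38.p6, written 5' to 3' on the strand of the gene, with the core of the binding site of PU.1 (GAGGAA, or TTCCTC on the other strand) in capitals. PU.1, encoded by Spi1, is the transcription factor that sets up myeloid identity. The Mrc1 window is on the plus strand at chr2:14229164-14229413 and the C1qb window on the minus strand at chr4:136886201-136886450. The last 22 bases of the Mrc1 window lie inside the GENCODE gene and are not printed, so its letters end at 14229391. Positions are counted from the RefSeq start, after the full window.
Mrc1: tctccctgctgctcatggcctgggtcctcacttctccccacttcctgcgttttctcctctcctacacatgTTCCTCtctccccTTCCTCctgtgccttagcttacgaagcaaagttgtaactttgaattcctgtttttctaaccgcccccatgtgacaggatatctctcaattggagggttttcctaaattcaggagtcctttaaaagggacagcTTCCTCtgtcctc
C1qb: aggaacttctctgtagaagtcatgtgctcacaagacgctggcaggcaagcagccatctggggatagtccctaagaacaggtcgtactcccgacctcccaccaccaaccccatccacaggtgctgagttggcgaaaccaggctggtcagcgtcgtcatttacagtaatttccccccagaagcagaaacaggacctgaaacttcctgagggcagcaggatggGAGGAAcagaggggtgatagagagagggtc
The Mrc1 window held the core at 3 places, starting 180, 167 and 35 bases before the RefSeq start, and the C1qb window at 1 place, 30 bases before it. The core is common, as 23.3% of 32851 windows of 250 bases before RefSeq starts held it on either strand, so these matches are descriptions of the letters and not binding sites. Windows of 6 genes of the set were searched, and those of Cd68, Mrc1, C1qb, C1qc and Ptprc held the core. Not all of this is sequence before the gene. Of the 250 bases of the C1qc window, 151 lie inside the GENCODE gene. Ptprc had 2 windows, both wholly inside its GENCODE gene, and only the first held the core.

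The set differed by transcript length in the same direction as all genes. Of the genes with negative fold changes, C1qa, C1qb, C1qc and Cd68 had transcripts of 1040 to 1230 bases, and Csf1r (-0.03) one of 4701 bases. The genes with positive fold changes, Adgre1, Lyve1, Cd163, Mrc1 and Ptprc, had transcripts of 2893 to 5740 bases. When all tested genes were divided into 10 bins of length, the shortest bin (204 to 1442 bases) had a median log2 fold change of -0.27, and 33.4% of it was called lower. The bin from 5336 to 6828 bases, which holds Mrc1 and Ptprc, had a median of 0.27, and 31% of it was called higher.
Genes of similar length can be set against each other within a library. Per kilobase, Mrc1 (5374 bases) stood at 0.126 and 0.103 of Csf1r (4701 bases) in control and at 0.185 and 0.202 in fructose. Cd163 (4443 bases) stood at 0.0699 and 0.0760 of Csf1r in control and at 0.122 and 0.100 in fructose. Both ratios were higher in both fructose libraries than in both control libraries. So was that of Lyve1 (2893 bases) to Csf1r. The ratios of C1qa, C1qb and C1qc (1040 to 1203 bases) to Csf1r were lower in both, and that of Cd68 (1230 bases) overlapped. Lyve1, Cd68 and the C1q genes have shorter transcripts than Csf1r, so their ratios to it are not matched for length. Over all tested genes, the levels of 65.1% did not overlap between the groups, and no such share was taken for ratios. GC content differed between these genes, at 54.5% for Csf1r, 47.9% for Cd163 and 43.4% for Mrc1. Among short genes, the ratio of C1qa to C1qb was 0.700 and 0.844 in control and 0.798 and 0.766 in fructose, with overlapping groups.

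**Figure D3:**
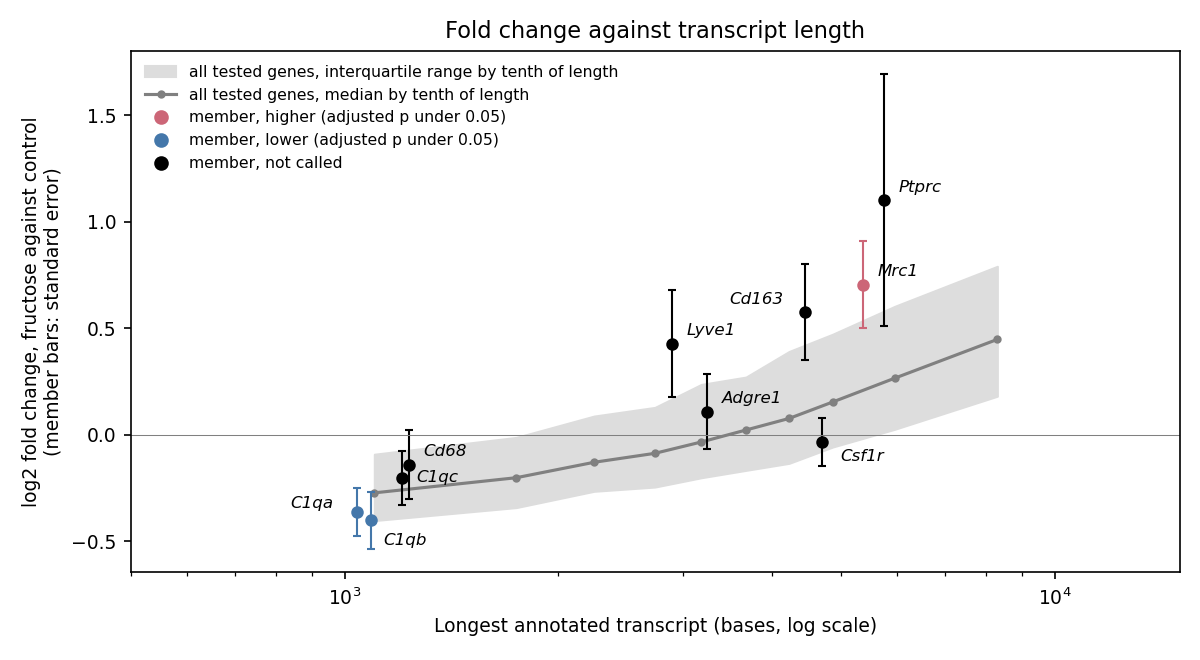
Log2 fold change of fructose against control (y axis) against the length of the longest annotated transcript in bases on a log scale (x axis), for the 10 genes with their standard errors and for all tested genes as the median (grey line) and interquartile range (grey band) of each of 10 bins of length. Red marks the gene called higher, blue those called lower and black the others, and the band is drawn at the median length of each bin. C1qa, C1qb, C1qc, Cd68, Csf1r and Adgre1 lie within the interquartile range of their bin, C1qa and C1qb to the left of its drawn end, and Lyve1 (0.43), Cd163 (0.58), Mrc1 (0.71) and Ptprc (1.10) above it.

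Calls in the other lists are read against the shares over all genes, 15.5% higher and 10.7% lower. Of 43 called genes that the rule for named genes picks from the lists other than skeletal muscle, 7 were called in the same direction with both trends removed, 31 by DESeq2, 31 and 34 without control library 1 and 2, and 26 and 23 without fructose library 1 and 2. Of 30 listed genes of general macrophage identity, 29 were tested, 2 were higher and 1 was lower, and their median log2 fold change was -0.08. Mertk, a receptor for the clearance of dying cells, was at 4.80 and 4.66 CPM in control and 7.87 and 10.6 CPM in fructose, with a log2 fold change of 0.96 (SE 0.20, adjusted p = 0.0051). It was called with both trends removed (0.87, adjusted p = 0.019) and not without fructose library 2 (0.74, adjusted p = 0.058). Maf, a transcription factor of resident macrophages, was higher by 0.58 (SE 0.17, adjusted p = 0.029), and Coro1a, an actin regulator of leukocytes, was lower (-0.64, SE 0.17, adjusted p = 0.020). Neither was called with both trends removed (0.28 and -0.33). Maf was not called without control library 2 (0.37, adjusted p = 0.12) or fructose library 2 (0.47, adjusted p = 0.15), nor Coro1a without control library 1 (-0.33, adjusted p = 0.15).
Of 19 listed genes of tissue-resident macrophages, 16 were tested, 3 were higher and 1 was lower, with a median of 0.03. F13a1, a transglutaminase subunit made by resident macrophages, was at 17.5 and 11.6 CPM in control and 22.4 and 20.7 CPM in fructose (log2 fold change 0.57, SE 0.17, adjusted p = 0.028). Pf4, a chemokine of megakaryocytes and fetal macrophages with a short transcript of 588 bases, was at 26.3 and 20.4 CPM in control and 17.5 and 16.5 CPM in fructose (log2 fold change -0.46, SE 0.14, adjusted p = 0.029). Selenop and Ednrb, which other cells also make, were higher by 0.28 and 0.41 (adjusted p = 0.034 and 0.023). F13a1 was not called without control library 2 (0.30, adjusted p = 0.13), nor Pf4 without control library 1 (-0.27, adjusted p = 0.18). With both trends removed F13a1 was at 0.44, Pf4 at -0.14, Selenop at 0.20 and Ednrb at 0.18, and edgeR called 0 genes of this list, with 2 at an unadjusted p-value under 0.05.
Without control library 2 the general list gave 1 higher and 7 lower, and the resident list 1 higher and 3 lower. Without control library 1 they gave 3 higher and 0 lower, and 5 higher and 0 lower.
The ligands of the Csf1r receptor are named outside the rule for named genes, after their values were seen. Csf1 was at 26.1 and 20.0 CPM in control and 21.5 and 22.1 CPM in fructose, and Il34 at 8.71 and 7.54 CPM against 7.92 and 6.70 CPM, and both sets of groups overlapped. In their list of 8 growth factor genes, 7 were tested and 1 was called, the receptor gene Tgfbr1 (0.58, SE 0.19, adjusted p = 0.041). DESeq2 did not call it (adjusted p = 0.12), nor did edgeR once both trends were out (0.02, adjusted p = 0.97).
Among 24 listed genes of the complement system outside C1q, 20 were tested, 2 were higher and 2 were lower, with a median of -0.10. Serping1, which encodes the inhibitor of the C1 proteases, was at 42.8 and 33.5 CPM in control and 27.6 and 28.5 CPM in fructose (log2 fold change -0.44, SE 0.12, adjusted p = 0.018). Cfd, the adipocyte protease adipsin, was at 1310.2 and 738 CPM in control and 659 and 732 CPM in fructose (-0.56, SE 0.19, adjusted p = 0.0495). Control library 1 stood apart from the other 3, and DESeq2 did not call Cfd (adjusted p = 0.36). Cd93, a receptor of endothelium and myeloid cells, was higher by 0.34 (SE 0.08, adjusted p = 0.0089), and Cd55, an inhibitor of complement convertases, by 0.84 (SE 0.25, adjusted p = 0.030). Without control library 1, Serping1 was at -0.26 (adjusted p = 0.12), Cfd at -0.09 (adjusted p = 0.51) and Cd55 at 0.58 (adjusted p = 0.12). With both trends removed Serping1 was at -0.22, Cfd at -0.14, Cd93 at 0.02 and Cd55 at 0.65, none of them called (adjusted p from 0.15 to 0.90), and Cr1l and Lrp1 were called lower, which were named after their values were seen.

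No listed inflammatory or alternative activation gene was called. Of 25 listed inflammatory genes, 13 were tested, and none was called by edgeR or DESeq2, with 0 at an unadjusted p-value under 0.05. The cytokine gene Il1a and the chemokine gene Cxcl2 had 0 counts in every library, which allows a level of up to 0.127 to 0.162 CPM, taken as 3 counts of the total and covering counting error only. Tnf, named after its values were seen, as is Arg1, had 1 and 2 counts in control and 1 and 4 in fructose. Of 13 listed genes of alternative activation, 7 were tested, and none was called by either tool, with 2 at an unadjusted p-value under 0.05. Arg1 had 2 and 1 counts in control and 0 and 3 in fructose, and Il10 had 0 in each. For Tnf, Arg1, Il10, Il1a and Cxcl2, at 4 counts or fewer in every library, a difference was not detectable at this depth. Among the tested genes of alternative activation, Il4ra was called lower with the length trend removed (-0.36, adjusted p = 0.045) and Klf4 higher with the GC content trend removed (0.46, adjusted p = 0.046), and both were named after their values were seen.

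Among other blood cells, neutrophil and erythroid genes were lower in fructose, as C1qa and C1qb were. Of 15 listed neutrophil genes, 10 were tested, 7 were lower and none was higher, with a median log2 fold change of -0.71. Their summed level was 95.9 and 66.8 CPM in control and 43.0 and 53.2 CPM in fructose, and no listed neutrophil gene was at 0 in all libraries. S100a8, a calcium-binding alarmin of neutrophils and monocytes, was at 17.2 and 9.82 CPM in control and 6.81 and 7.23 CPM in fructose (log2 fold change -0.94, SE 0.22, adjusted p = 0.010). Lcn2, a siderophore-binding protein of neutrophil granules that adipocytes also make, was at 7.18 and 5.49 CPM in control and 2.88 and 3.27 CPM in fructose (-1.04, SE 0.23, adjusted p = 0.0070). Retnlg was lower by the same test (-0.96, adjusted p = 0.016), as were S100a9 (-0.70, adjusted p = 0.014) and Ngp (-0.71, adjusted p = 0.030). Removal of the length trend left 2 neutrophil genes called lower, that of the GC content trend 6, and that of both trends 1, which was S100a8 (-0.78, adjusted p = 0.026). Lcn2 was then at -0.77, Retnlg at -0.74, S100a9 at -0.52 and Ngp at -0.49. S100a8 was not called without control library 1 (-0.49, adjusted p = 0.062). The lower calls numbered 3 without control library 1 and 2 without fructose library 1.
Of 10 listed erythroid genes, 9 were found and tested, 5 were lower and none was higher, and their sum was 19213.1 and 15302.1 CPM in control against 11772.1 and 12147.3 CPM in fructose. After removal of both trends edgeR called 0 of them, with 2 at an unadjusted p-value under 0.05. The haemoglobin genes among them are close copies of each other, so single values of these are uncertain. Of 12 listed mast cell genes, 9 were tested, with a median log2 fold change of 0.0015, 5 values above 0 and 4 below. None was higher and 2 were lower, namely Tpsb2 (-0.63, SE 0.16, adjusted p = 0.014), which control library 1 led at 126 CPM, and Hdc (-0.36, SE 0.11, adjusted p = 0.039). DESeq2 called neither (adjusted p = 0.16 and 0.075). Hdc, the enzyme of histamine synthesis, was called with both trends removed (-0.48, adjusted p = 0.030) and not without control library 1 (-0.19, adjusted p = 0.27), and Tpsb2 was at -0.30 with both removed (adjusted p = 0.28). Among 7 tested monocyte genes, Vcan alone was called (0.78, SE 0.17, adjusted p = 0.0067), a matrix proteoglycan gene that fibroblasts also express. It was not called with the length trend removed (0.20, adjusted p = 0.45) or both (0.10, adjusted p = 0.75). With no trend removed, no gene was called by edgeR or DESeq2 among the 6 tested dendritic cell genes (1 at an unadjusted p-value under 0.05), the 6 tested lymphocyte genes (0) or the 1 tested of 7 listed liver genes (0). With the length trend removed, and with both removed, edgeR called 1 dendritic cell gene lower. The part of blood or of other leukocytes in the C1q values was not tested.

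Lyve1 and Mrc1 are also made in endothelium. Of 11 listed lymphatic genes, 6 were tested and 1 was called, Nrp2 (0.24, SE 0.08, adjusted p = 0.041), a receptor that neurons and veins also carry. The lymphatic regulator Prox1 had 2 and 1 counts in control and 4 and 19 in fructose, and was not tested. Of 12 listed blood endothelial genes, 11 were tested and 2 were lower, Esam (-0.28, adjusted p = 0.024) and Egfl7 (-0.26, adjusted p = 0.041), both proteins of the vessel wall. With both trends removed, Nrp2 was at 0.04, Esam at -0.05 and Egfl7 at 0.02, and none of these was called (adjusted p from 0.74 to 0.94). In the blood endothelial list, 1 other gene was then called lower, and 3 genes were called lower with the length trend alone removed. The lymphatic list summed to 121.8 and 123.8 CPM in control and 140.3 and 140.9 CPM in fructose, with 5 of 6 fold changes above 0. Nrp2 alone gave 87.5 and 86.5 CPM of the control sums and 103.0 and 102.7 CPM of the fructose sums. The median log2 fold change of this list was 0.07, and -0.0069 with both trends removed. The blood endothelial list summed to 1823.5 and 1885.7 CPM in control and 1701.2 and 1754.2 CPM in fructose, with 9 of 11 below 0. The part of endothelium in the Lyve1 and Mrc1 values was not tested.
Of 18 listed lysosomal genes, which every cell uses, 17 were tested and 5 were lower, with a median of -0.18. Of 14 listed interferon-responsive genes, 12 were tested, 1 was higher and 3 were lower. Ifit2 was the gene called higher, with the log2 fold change 1.23 (SE 0.38, adjusted p = 0.034). DESeq2 called 0 interferon-responsive genes higher. Bst2, a surface protein that tethers virions, was lower (-0.46, SE 0.09, adjusted p = 0.0049), and at -0.09 with both trends removed (adjusted p = 0.59). After removal of both trends 1 lysosomal gene was called (Ctsl) and 0 interferon-responsive genes, of which 2 had an unadjusted p-value under 0.05. DESeq2 called 3 of each list.
Lipid-handling genes that macrophages share with adipocytes gave 3 higher and 2 lower of 9 tested. Those lower were Nr1h3 (-0.29, adjusted p = 0.020) and Abcg1 (-0.35, adjusted p = 0.020), the latter named after its values were seen. With both trends removed, 1 gene of this list was called lower. The 12 brown adipocyte genes gave 2 higher and 3 lower. Abca1, a cholesterol exporter, was at 29.7 and 26.4 CPM in control and 68.8 and 80.4 CPM in fructose (log2 fold change 1.41, SE 0.11, adjusted p = 2.9e-05). Lpl (0.75, adjusted p = 0.00054) and Cd36 (0.58, adjusted p = 0.0013), which act in the uptake of fatty acids, were higher as well. With both trends removed Abca1 (0.94, adjusted p = 0.00058) and Lpl (0.50, adjusted p = 0.0080) were still called and Cd36 was not (0.08, adjusted p = 0.61), its value being -0.03 with the GC content trend alone removed. Adipocytes make these transcripts at high levels, and the cells they came from were not told apart.

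**Figure D4:**
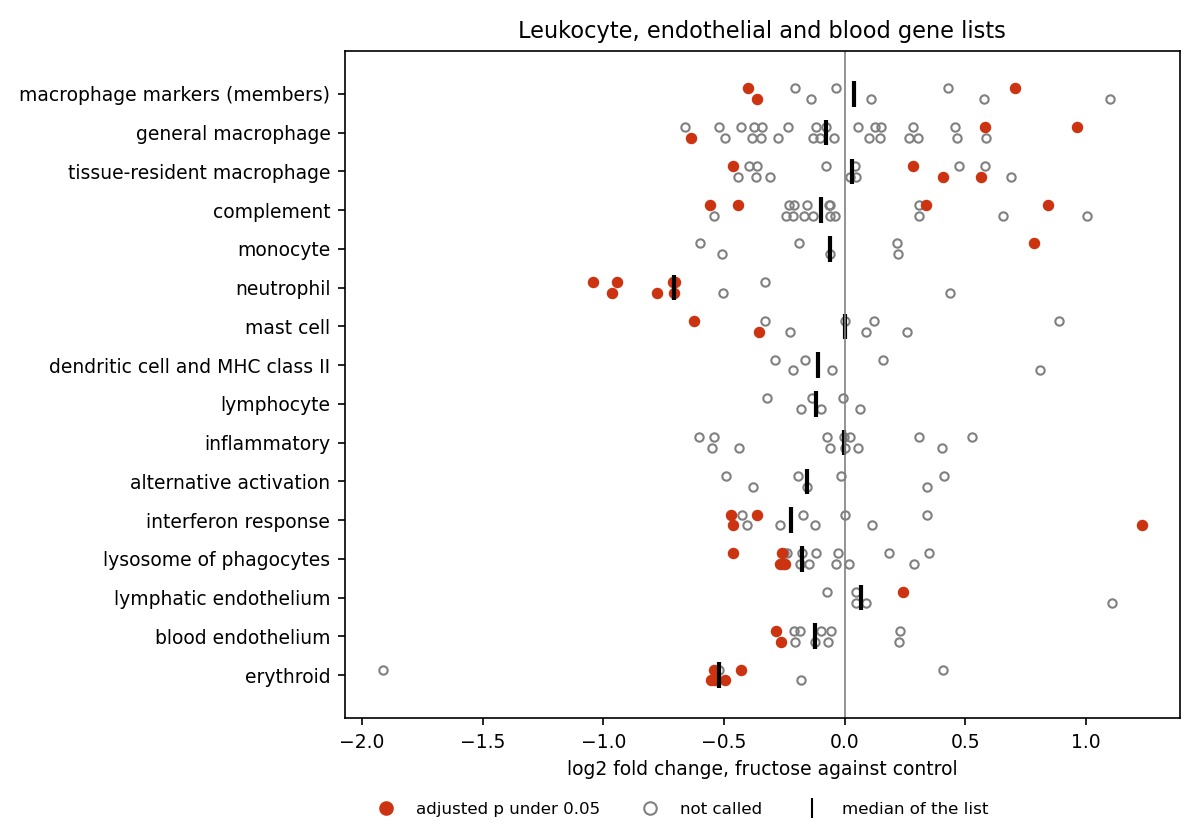
Log2 fold change of fructose against control (x axis) for every tested gene of 16 lists (y axis), with filled red circles for genes at an adjusted p-value under 0.05, open circles for the others and a black bar for the median of each list. The 10 macrophage markers spread to both sides of 0, and the neutrophil and erythroid lists lie mostly to the left with medians of -0.71 and -0.52.

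The profile of the set over the 4 libraries, as the mean of its centred log2 CPM, was 0.13, -0.29, 0.0015 and 0.16 for the control and then the fructose libraries in order of number. The 5 tested genes outside the set whose centred log2 CPM lay nearest to this profile were Med6, Lrch1, Lcp1, Fcgr2b and Cdc6, with root mean square distances of 0.013 to 0.031 over the 4 libraries. Lcp1, an actin-bundling protein of leukocytes, was at 20.9 and 16.3 CPM in control and 19.4 and 21.2 CPM in fructose. With 4 libraries, nearness in profile is a description only.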

How the data were processed

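RNA-seq of fetal BAT was analysed in 2 control and 2 fructose libraries, grouped by the treatment label. The authors filtered reads with Fastp, mapped them to mm10 with Bowtie2 and Tophat, assembled transcripts with StringTie, merged them with Cuffmerge, and deposited raw counts per gene, without normalization. The counting tool, its treatment of strand and the annotation release are not given in the sources used here. Counts in the 4 single-library tables equalled those in the joint table. Symbols, coordinates, transcript lengths and GC content came from GENCODE vM21 (GRCm38), in which 43 of 22298 identifiers had no match. Promoter sequences came from RefSeq (GRCm38.p6).

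Genes kept by filterByExpr (12888) were tested with edgeR 4.0.16 (quasi-likelihood, TMM, no covariate, R 4.3.3). Alternatives were DESeq2 1.42.0, other scalings and filters, the replicate block, removal of the length or GC content trend (lowess, span 0.3) or both, and each library left out. The named genes are the 10 members and, of each of 20 other lists, called genes, at most 3 by level and 3 by size of change, and genes at 0 counts, besides the 5 nearest profiles. Exceptions are marked in the text. The members and lists were chosen with earlier results of these data known. Of 295 genes in the other lists, 294 were found.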

Additional observations from a re-analysis of the deposited data

How the results depend on the processing

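Of 149 values of single macrophage marker genes under the alternatives, 107 kept their sign and their side of the threshold, 22 lost the call, 4 gained one and 16 changed sign. The cause of these changes was not tested. The alternative with library sizes set without mitochondrial and haemoglobin genes could hardly move the values, because TMM was computed on the same counts. Its values were nearly those of the main fit (Mrc1 0.705234 against 0.705233), so those among the 107 say nothing about stability. No marker gene was called with the length trend removed, the GC content trend removed or both removed, nor with both removed and the replicate block. The counts were 0 higher and 0 lower in each of these settings. The block was not combined with removal of a single trend. The count of lower marker genes was also 0 by DESeq2 and with scaling by library size only. By the thresholds of the study 2 were higher and 1 lower on the edgeR fit, and 1 and 1 on the DESeq2 fit, an alternative added after seeing the data. Over the libraries left out in turn, 0 to 3 were higher and 0 to 3 lower, and the log2 ratio of their summed level, -0.11 with all libraries, ranged from -0.27 to 0.073, the latter without control library 1.

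Over all tested genes, 2001 were higher and 1379 lower. The counts were 1150 and 990 with the length trend removed, 1092 and 1130 without the GC content trend, 504 and 537 with both removed, and 681 and 618 with both removed and the replicate block. The lower count was 857 with scaling by library size only and 797 by the thresholds of the study on the edgeR fit and 744 on the DESeq2 fit. Left-out libraries gave 1207 to 2225 higher and 485 to 1700 lower. In the other lists, 28 genes were higher and 33 lower. The higher count was 15 with both trends removed and 17 with the block added. The lower count was 17 with library size only, 15, 19 and 9 with the length, the GC content and both trends removed, 12 with the block added, and 19 to 47 over left-out libraries.

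The values that changed sign were those of Adgre1 (-0.0077 with the GC content trend removed), Csf1r (0.026 with library size only and 0.082 without the GC content trend), Cd68 (0.095 with the length trend removed, 0.14 with both, and 0.14 with the block added), C1qa (0.037 with both and 0.038 with the block added) and C1qc (0.036 with the length trend removed, 0.15 with both, and 0.15 with the block added). Over left-out libraries, Adgre1 ranged from -0.033 to 0.24, Csf1r from -0.20 to 0.15, C1qc from -0.38 to 0.00096 and Ptprc from -0.10 to 1.96.

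The libraries share replicate numbers across groups, but nothing says that a number marks a shared dam or day. The differences between libraries 1 and 2 correlated at -0.05 across genes in the 2 groups. With the replicate block, 2117 genes were higher and 1441 lower, and the calls of Mrc1, C1qa and C1qb remained. Ptprc could not be fitted at a minimum of 10 counts in every library. Low counts, as of Tnf, Arg1 and Prox1, limit what can be seen.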
